A study of Mus musculus with 16 samples.

Results

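Interferon response genes are switched on in cells that sense interferon, and 41 of them were followed across 16 mouse liver libraries. They were chosen from a list of interferon-stimulated genes and their transcription factors, matched by symbol to Ensembl identifiers. The choice was made with earlier results of these data known. Member shares set against all genes therefore describe the list and do not test it. All 41 were among the 25006 genes of the count table and among the 13180 genes tested. Of these, 33 were of the type I style and 8 were guanylate-binding proteins or immunity-related GTPases. The C57BL/6 mice drank control water or antibiotic water. They were gavaged once with a slurry of chow or of fast food, and livers were taken 4 h later. The 4 groups, of 4 libraries each, were chow with control water (chow control), fast food with control water (fast food control), chow with antibiotic water (chow antibiotic) and fast food with antibiotic water (fast food antibiotic). All mice therefore received a gavaged meal. The labels do not say that each library is a separate mouse, so the p-values measure the spread between these libraries. The antibiotics, their doses, and the age and sex of the mice are not stated in the labels.

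As background, type I interferons signal through JAK kinases to a transcription factor complex, with STAT2 and IRF9 among its subunits, that binds interferon-stimulated response elements (ISRE) in promoters. Interferon gamma acts at gamma-activated sites (GAS), and IRF1 and the 2 GTPase families are among its classic targets. Unchallenged tissues keep a low level of these transcripts, and in mice the gut microbiota is known to contribute to it.

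Promoter sequence is shown first, since the ISRE is the element the list is named for. The motif shares cover all members with a window, whether or not their transcripts differed between groups. The members were listed as interferon-stimulated genes, so a high ISRE share follows from the list and is not a result of these data. RefSeq promoter windows (GRCm38.p6, 250 bases before to 50 after a start site) matched 30 of the 41 members, in 35 windows. The ISRE was searched on both strands as GAAA, any 2 bases and GAAA again (on the opposite strand TTTC, any 2 bases and TTTC), where overlapping matches count as 1 window. It was found in 57.1% of the members' windows and in 3.44% of all 32851 windows. By gene it was found in 13 of 23 type I style members and 6 of 7 GTPase members. The GAS letters, TTCNNNGAA, were found in 22.9% of the members' windows and 8.3% of all windows. A match is a description of these letters and not a measured binding site. Dtx3l and Irf7, which had the lowest p among members with a window, held no ISRE match, nor did Oasl2, Irf9 and Xaf1. Zbp1, Parp9 and Dhx58, also of low p, had no window. The 250 bases before the start are given for 5 members of low p, chosen for having a match there, with ISRE matches in capitals.
Isg15, chr4:156200819-156201068, minus strand: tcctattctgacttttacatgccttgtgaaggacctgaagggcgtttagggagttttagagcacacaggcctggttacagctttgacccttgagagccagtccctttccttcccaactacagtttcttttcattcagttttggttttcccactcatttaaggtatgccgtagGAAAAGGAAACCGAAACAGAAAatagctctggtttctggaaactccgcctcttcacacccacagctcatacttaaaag
Ifit3, chr19:34583279-34583528, plus strand: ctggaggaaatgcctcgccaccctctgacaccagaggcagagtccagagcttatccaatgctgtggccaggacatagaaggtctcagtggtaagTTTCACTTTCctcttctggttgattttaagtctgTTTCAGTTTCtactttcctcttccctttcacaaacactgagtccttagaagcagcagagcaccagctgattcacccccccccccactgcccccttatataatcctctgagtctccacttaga
Ifit3b, chr19:34607707-34607956, plus strand: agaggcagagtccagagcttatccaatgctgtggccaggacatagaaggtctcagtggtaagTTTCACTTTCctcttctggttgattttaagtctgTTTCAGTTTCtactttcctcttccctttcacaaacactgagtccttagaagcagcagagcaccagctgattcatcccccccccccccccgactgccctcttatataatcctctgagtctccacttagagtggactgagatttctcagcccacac
Bst2, chr8:71537473-71537722, minus strand: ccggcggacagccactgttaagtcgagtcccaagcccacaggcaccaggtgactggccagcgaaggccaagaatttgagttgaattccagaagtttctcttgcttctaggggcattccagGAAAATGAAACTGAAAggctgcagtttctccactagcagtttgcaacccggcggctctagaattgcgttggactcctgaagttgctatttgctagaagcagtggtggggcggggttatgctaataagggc
Gbp3, chr3:142559794-142560043, plus strand: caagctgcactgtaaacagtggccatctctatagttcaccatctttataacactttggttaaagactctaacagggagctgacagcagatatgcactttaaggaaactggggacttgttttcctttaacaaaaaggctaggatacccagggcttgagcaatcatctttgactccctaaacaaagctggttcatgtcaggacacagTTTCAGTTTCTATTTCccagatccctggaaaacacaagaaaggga
Isg15 held 3 overlapping matches from position -78 to -66 (first base, counted from the start site). Ifit3 and its paralog Ifit3b held the same pair of matches, at -156 and -122 in Ifit3 and at -188 and -154 in Ifit3b. Bst2 held an overlapping pair at -130 and -124, and Gbp3 at -45 and -39. Ddx58 had its match, TTTCGATTTC, at position 2, just past its start site.

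Counts per library ran from 8954378 to 18954655. Features that take ribosomal RNA-like reads (4 features) held 0.12% to 0.587% of counts in 9 libraries and 2.45% to 8.42% in the 7 shallowest. All 4 fast food control libraries were on the low side of this split, against 2 chow control, 2 chow antibiotic and 1 fast food antibiotic library. Acute phase transcripts stood apart in 3 libraries. Their mean log2 deviation over 10 genes was 1.43 in chow control replicate 2, 2.73 in chow antibiotic replicate 4, and 2.51 in replicate 2 of fast food antibiotic. The hepatocyte marker Alb was at 54700 counts scaled to a common library size (CPM, the usual per-million unit) or more in every library. Summed over 6 Kupffer cell markers, the level was 177 to 540 CPM in chow control, 218 to 302 in fast food control, 117 to 153 in chow antibiotic and 114 to 169 in fast food antibiotic libraries. Results that these libraries or markers touch are given with their values.

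**Figure D1:**
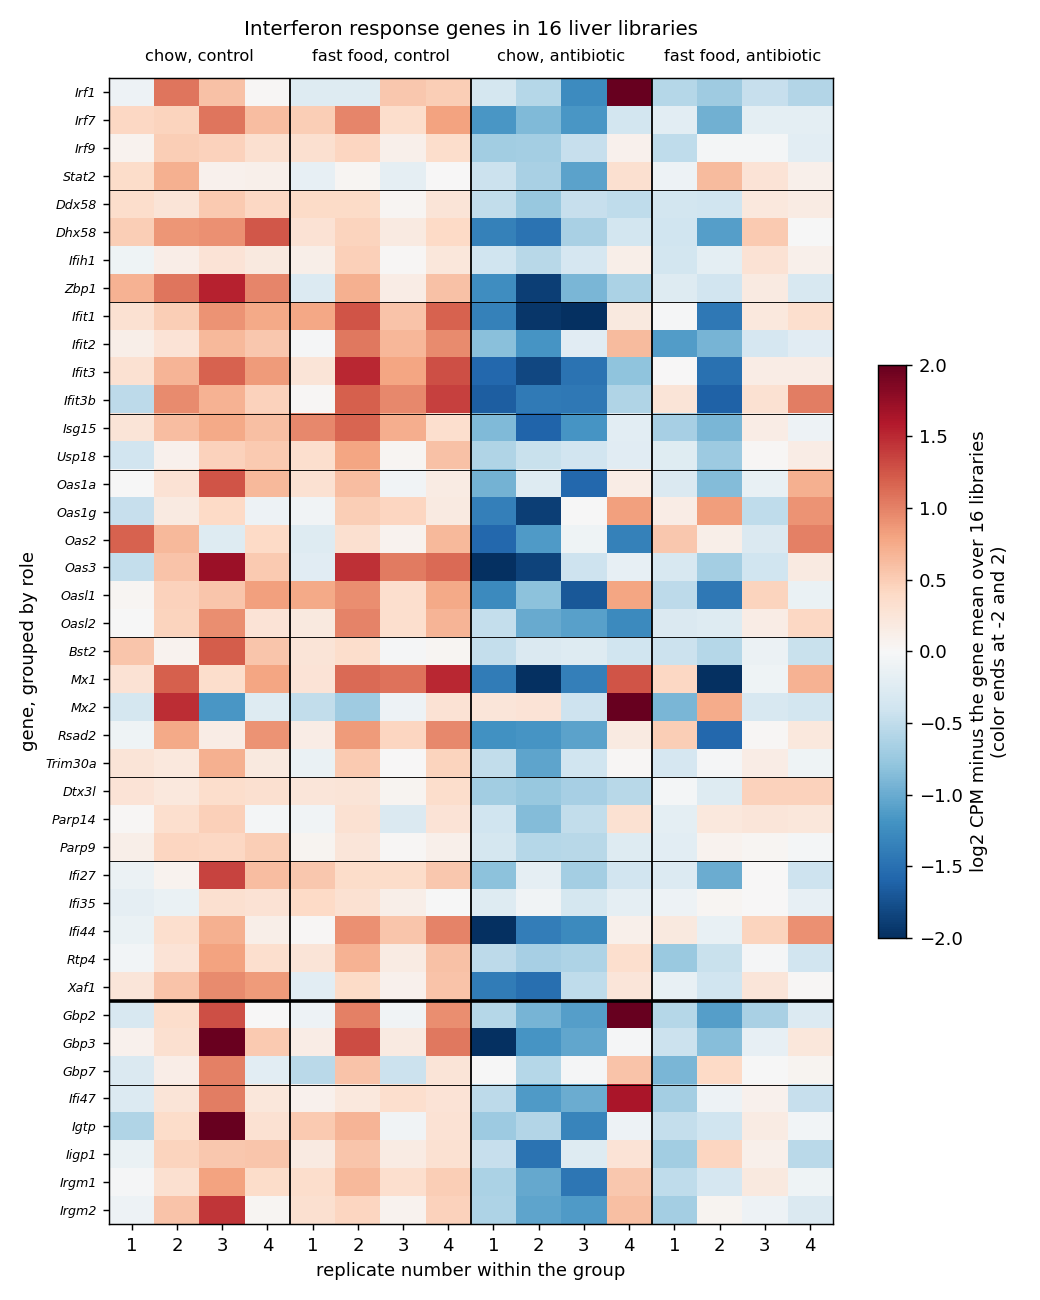
Each cell is the log2 CPM of 1 gene (rows, grouped by role, GTPase members under the thick line) in 1 library (columns, by group and replicate), minus that gene's mean over 16 libraries; color ends at -2 and 2. Most rows are blue in chow antibiotic replicates 1, 2 and 3, while replicate 4 of that group holds the deepest red of Irf1, Mx2, Gbp2 and Ifi47.

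After chow, antibiotic water went with lower interferon transcripts. In the comparison of chow antibiotic with chow control, 26 of 41 members fell and none rose (edgeR, adjusted p under 0.05), where 13.2% of all genes tested were called lower and 10.6% higher. Of the 33 type I style members 24 fell, and of the 8 GTPase members 2 fell, Gbp3 and Igtp. The fold change was negative for 39 of 41 (50.5% of all genes), the exceptions being Irf1 and Mx2, and the median was -1.01 against -0.01 over all genes tested. For 15 members no chow antibiotic library overlapped the chow control libraries (13.6% of all genes lay lower without overlap). Levels are CPM from here on, with TMM scaling, and folds are log2 with standard errors.

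Irf7, the transcription factor that amplifies the type I response, was at 19.1, 19.6, 30.4 and 22.1 CPM in chow control replicates 1 to 4. It was at 6.33, 7.71, 6.31 and 11.2 CPM in chow antibiotic replicates 1 to 4. The groups did not overlap, and Irf7 fell 2.96-fold (-1.57 ± 0.22, edgeR adjusted p = 0.000199). Irf9, the DNA-binding subunit of the complex with STAT2, was at 42.1 to 56 CPM in chow control and at 24.6, 25, 28.9 and 42.5 CPM in chow antibiotic libraries. Only chow antibiotic replicate 4 reached the chow control range (-0.76 ± 0.16, adjusted p = 0.00319). Stat2 was at 41.8, 53, 34.4 and 34.7 CPM after chow in control water and 24.1, 20.6, 15.3 and 40.3 CPM in antibiotic water. Replicate 4 again lay among the controls, and the call of Stat2 (-0.72 ± 0.24, adjusted p = 0.0371) was lost when any of 5 libraries was left out. Irf1, which drives interferon gamma targets, did not follow. Its levels were 28.6, 65, 46.1 and 31.2 CPM in chow control libraries and 24.2, 20.7, 12.7 and 165 CPM in chow antibiotic libraries. The first 3 chow antibiotic values of Irf1 lay below every control and replicate 4 above every other library (0.36 ± 0.65, adjusted p = 0.724).

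Among sensors of foreign nucleic acid, 3 of 4 fell after chow in antibiotic water. Zbp1, a sensor of left-handed nucleic acid that can trigger cell death, was at 3.76, 4.94, 6.89 and 4.6 CPM in chow control and 0.889, 0.525, 1.15 and 1.42 CPM in chow antibiotic libraries. That 5.2-fold fall was the largest of the 41 (-2.38 ± 0.31, edgeR adjusted p = 9.19e-05), and every chow antibiotic library lay below every control. Dhx58, which encodes the RIG-I-like regulator LGP2, went from 8.91, 11.7, 11.9 and 15.2 CPM to 2.39, 2.19, 3.96 and 4.83 CPM (-1.88 ± 0.30, adjusted p = 0.000445). An antisense gene, Dhx58os, shares part of its sequence, and whether the counting used strand is not stated. Ddx58, which encodes the RNA sensor RIG-I, went from 42.7, 40.2, 48.4 and 44.8 CPM to 24, 19.9, 24.4 and 23.4 CPM. The 4 antibiotic values of Ddx58 were close to each other and apart from the controls (-0.94 ± 0.14, adjusted p = 0.000279). Ifih1, the sensor MDA5, had a smaller difference that did not pass (-0.41 ± 0.16, adjusted p = 0.07).

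The IFIT genes encode proteins that bind viral RNA and block its translation. Ifit3 was at 5.05, 6.59, 9.32 and 7.37 CPM in chow control and 1.28, 1.05, 1.38 and 2.27 CPM in chow antibiotic libraries. Groups did not overlap, and Ifit3 fell 4.97-fold (-2.31 ± 0.37, edgeR adjusted p = 0.000475). Ifit3b was at 0.751, 2.34, 1.93 and 1.62 CPM and then 0.278, 0.35, 0.344 and 0.71 CPM (-2.12 ± 0.55, adjusted p = 0.0103). Of the 50-base stretches in Ifit3 transcripts 51.2% also occur in another gene's, all of them in Ifit3b, so the split of reads between this pair is uncertain. Ifit1 was at 9.55, 10.9, 14.6 and 13.1 CPM in chow control libraries. Its levels in chow antibiotic replicates 1 to 3 were 2.94, 1.93 and 1.55 CPM, and 8.95 CPM in replicate 4, still below every control (-1.79 ± 0.47, adjusted p = 0.0128). Ifit2 was at 6.23, 6.94, 9.07 and 8.37 CPM and 3.17, 2.45, 4.87 and 8.95 CPM, a difference that did not pass (-0.72 ± 0.33, adjusted p = 0.13).

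ISG15 is a ubiquitin-like protein, and USP18 removes it and restrains the interferon receptor. Isg15 was low throughout, at 1.61, 2.13, 2.33 and 2.09 CPM in chow control and 0.667, 0.35, 0.516 and 1.14 CPM in chow antibiotic libraries. No library overlapped (-1.70 ± 0.35, edgeR adjusted p = 0.00238). Usp18 was at 9.98, 13.9, 18.1 and 19 CPM and then 8.61, 9.63, 10.1 and 11.2 CPM. Chow control replicate 1 overlapped the antibiotic libraries, and the fall of Usp18 (-0.64 ± 0.22, adjusted p = 0.0408) depended on 5 single libraries.

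Of the 6 genes of the oligoadenylate synthetase (OAS) family, whose products activate RNase L or resemble those that do, 4 fell. Oasl2 was at 2.58, 3.57, 5.06 and 3.14 CPM in chow control and 1.83, 1.23, 1.15 and 0.994 CPM in chow antibiotic libraries, with no overlap (-1.44 ± 0.28, edgeR adjusted p = 0.00191). Oas3 (-2.23 ± 0.63), Oas2 (-1.60 ± 0.47) and Oas1a (-1.53 ± 0.47) fell too, all from low levels. Oas1a shares 57.6% of its 50-base stretches with other genes, chiefly Oas1g, which had 97 counts over all 16 libraries and did not pass. Oasl1 (-1.03 ± 0.47, adjusted p = 0.124) did not pass either.

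Effectors that act on virus directly were mixed. Bst2, the tetherin that holds virions at the cell surface, was at 47.6, 34.1, 76.1 and 47.8 CPM in chow control and 23.5, 26.6, 27.1 and 24.6 CPM in chow antibiotic libraries. Here replicate 4 was like its group, and Bst2 fell 2.02-fold (-1.02 ± 0.18, edgeR adjusted p = 0.00107). Rsad2, which encodes viperin (-1.25 ± 0.41), and Trim30a (-0.82 ± 0.22) fell too. Mx1 (-1.48 ± 0.84, adjusted p = 0.215) and Mx2 (0.55 ± 0.62, adjusted p = 0.553) did not pass. C57BL/6 mice are known to carry a defective Mx1 gene.

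PARP9 and DTX3L form a complex that ADP-ribosylates and ubiquitinates proteins. Parp9 was at 80.3, 100, 98.8 and 105 CPM in chow control and 57.9, 50.1, 50.6 and 61.5 CPM in chow antibiotic libraries (-0.81 ± 0.11, edgeR adjusted p = 0.00012). Dtx3l was at 104, 99.3, 110 and 107 CPM and then 52.8, 50.7, 54.3 and 58.4 CPM (-0.96 ± 0.14, adjusted p = 0.000192). For both genes all 4 antibiotic libraries, replicate 4 included, lay below all 4 controls. The genes lie head to head on chromosome 16 (Parp9 at chr16:35938470-35972605, Dtx3l at chr16:35926511-35939151, GENCODE M21, GRCm38) and share 458 exonic bases on opposite strands. Reads there cannot be assigned without strand. Parp14 did not pass (-0.53 ± 0.21, adjusted p = 0.0767).

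Among the other stimulated genes Ifi44 (-1.54 ± 0.43), Xaf1 (-1.44 ± 0.33), Ifi27 (-1.11 ± 0.28) and Rtp4 (-0.73 ± 0.23) fell after chow in antibiotic water. Ifi44 was at 2.04, 2.88, 3.77 and 2.46 CPM in chow control and 0.333, 0.788, 0.86 and 2.41 CPM in chow antibiotic libraries. Rtp4 was at 10.3, 13, 18.9 and 13.5 CPM and then 7.39, 6.74, 6.94 and 13.5 CPM. In both genes replicate 4 of the antibiotic group sat within the control range and the other replicates below it. Ifi35 had a small difference (-0.32 ± 0.13, edgeR adjusted p = 0.0977).

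The GTPase members guard against vacuolar pathogens, and several were set by single libraries. Gbp2 was at 4.62, 7.49, 14.5 and 5.91 CPM in chow control and 3.89, 2.98, 2.64 and 25.1 CPM in chow antibiotic libraries (-0.03 ± 0.64, edgeR adjusted p = 0.982). Replicate 4 held the highest Gbp2 of all 16 libraries and the other 3 of its group lay below every control. Igtp, which encodes IRGM3, was at 11.9, 23.4, 73.5 and 22.5 CPM and then 10.9, 12.1, 7.17 and 16.9 CPM. The 73.5 CPM was in chow control replicate 3, the library with the highest Kupffer marker sum. The call of Igtp (-1.52 ± 0.45, edgeR adjusted p = 0.0254) was lost without that library (adjusted p = 0.0786). It was also lost when chow antibiotic replicate 1, 2 or 3 was left out. Iigp1 had the highest level per length of the 41 in chow control, 70.2 CPM per kb of exon, ahead of Bst2 at 56.9. Iigp1 was at 287, 429, 457 and 463 CPM and then 229, 114, 262 and 383 CPM, which did not pass (-0.73 ± 0.31, adjusted p = 0.0969). Gbp3 fell (-2.02 ± 0.50, adjusted p = 0.00977), without overlap of the groups. Irgm2 (-1.01 ± 0.39), Irgm1 (-0.86 ± 0.33), Gbp7 (-0.23 ± 0.35) and Ifi47 (-0.21 ± 0.51) did not pass.

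**Figure D2:**
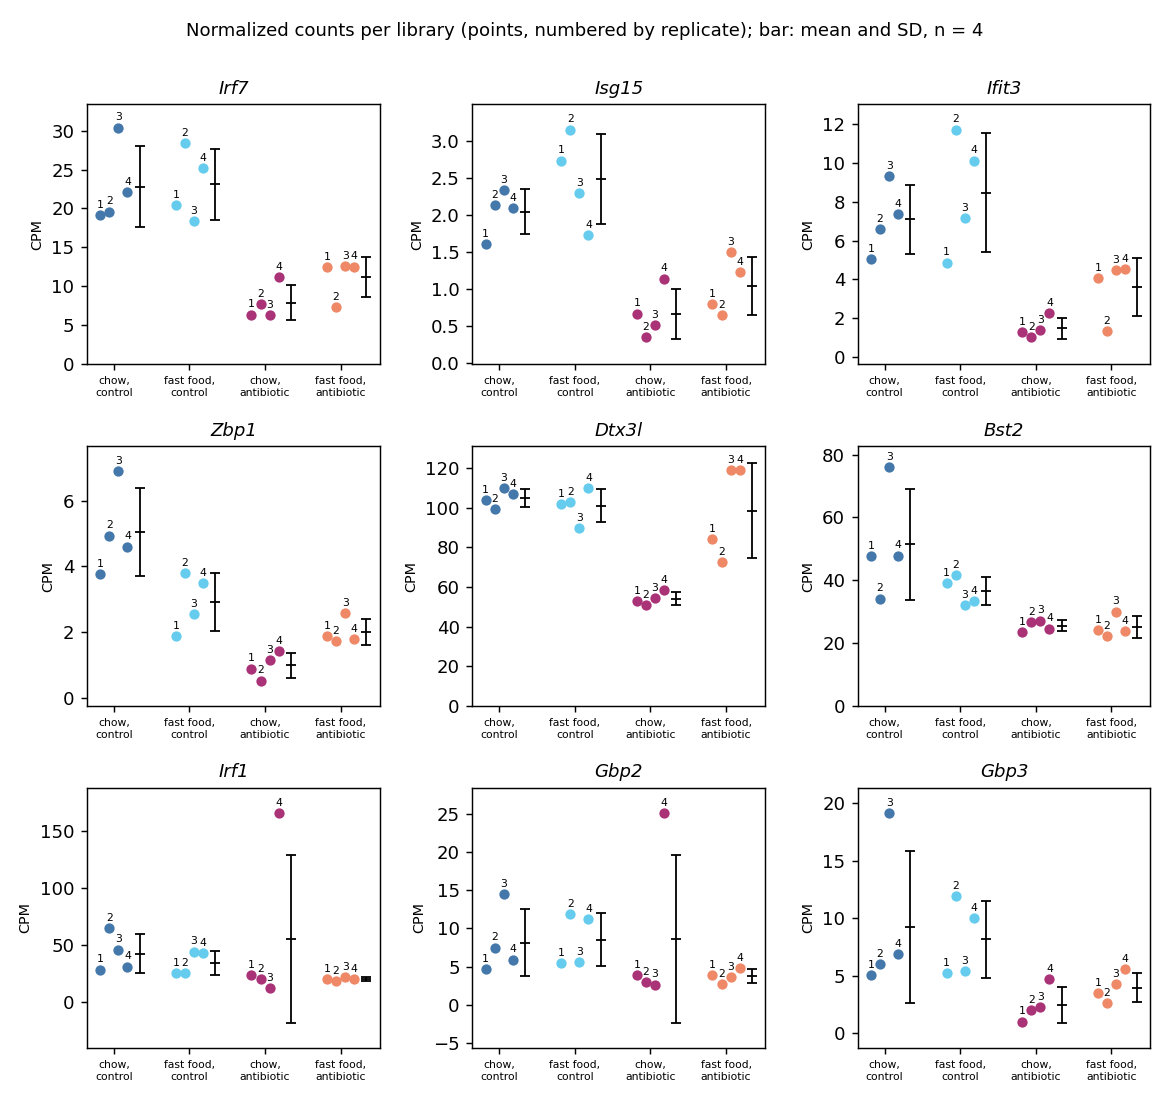
CPM (vertical axis, from 0 or below where an SD bar extends there) of 9 members in every library, by group; points carry the replicate number and the bar is the mean and SD of 4 libraries. Irf7, Ifit3, Zbp1 and Dtx3l in chow antibiotic lie below both control-water groups, while Irf1 and Gbp2 have 1 high library, chow antibiotic replicate 4, at 165 and 25.1 CPM.

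Chow antibiotic replicate 4 was the highest of its group for 27 of 33 type I style and 8 of 8 GTPase members, and it also had the highest acute phase score of all libraries. Its summed level of 4 neutrophil markers was 73.7 CPM against 2.98 to 4.47 CPM in the other 3 libraries of its group. Its sum of 4 cholangiocyte markers was 18.9 CPM against 3.44 to 5.08 CPM. The part of these cells in its high members was not tested. Without it 37 of 41 members fell (30 type I style and 7 GTPase), and without the 3 libraries of high acute phase transcripts 36 of 40 tested. Without chow antibiotic replicate 1 the count was 17. How many of all genes these fits called is not given, so the changed counts are not read as particular to the members. Of the 26 calls, 17 held without each library in turn. The highest adjusted p of the other 9 in these fits (edgeR) was 0.141 for Usp18, 0.123 for Rtp4, 0.109 for Oas1a and Rsad2, 0.102 for Stat2, 0.0837 for Oas3, 0.0786 for Igtp, 0.0744 for Oas2 and 0.0538 for Ifi44. Left out in those fits were chow control replicate 3 for Rtp4, Oas1a, Oas3, Igtp and Ifi44, chow control replicate 4 for Usp18 and Rsad2, and chow antibiotic replicates 2 and 1 for Stat2 and Oas2.

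The water effect after chow was also read on each side of the ribosomal RNA-like split. Among the low-share libraries, 2 of each group, 35 of 41 members fell (3319 of 13203 genes were called in either direction). Among the high-share libraries, also 2 of each group, edgeR called none of 38 members tested and 3 genes in all, with 2313 at an unadjusted p under 0.05. There 32 of 38 fold changes were negative, with a median of -0.64 against -1.46 on the low side. The share of negative fold changes over all genes in that fit is not given. The high-share antibiotic libraries include replicate 4.

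Kupffer cells are the resident macrophages of liver and respond to interferon. Of 6 Kupffer markers 5 fell after chow in antibiotic water, among them Clec4f (-1.08, edgeR adjusted p = 0.00294) and Cd5l (-1.78, adjusted p = 0.00121). Marco, the other marker, did not pass (0.48, edgeR adjusted p = 0.601). The summed levels did not overlap. In bulk liver, fewer cells of a type and less RNA per cell cannot be told apart. The B cell markers Cd79b and Ms4a1 fell as well, from summed levels (4 markers) of 1.17 to 2.15 CPM to 0.222 to 0.459 CPM. Siglech, a marker of plasmacytoid dendritic cells, averaged 0.441 CPM in chow control and 0.0355 CPM in chow antibiotic libraries. Of the 5 sinusoidal endothelial markers 1 was called lower, Kdr. The stellate cell markers Reln (-0.59, edgeR adjusted p = 0.0313) and Colec11 (-1.01, adjusted p = 0.00101) and the monocyte marker Ccr2 (-1.89, adjusted p = 0.00139) fell too. Their lists did not fall as a whole. The other stellate markers, Lrat (0.32), Dcn (0.11) and Des (0.11), and the monocyte marker Itgam (0.64) had positive fold changes that did not pass. The hepatocyte markers Alb, Apoa1 and Cps1 rose, and the sum of 5 went from 89700 to 122000 CPM up to 146000 to 208000 CPM. The part of these cells in the members' fall was not tested.

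After fast food, fewer members separated the waters. Of the 41, 5 fell with antibiotic water and none rose, all of the type I style, where 2.22% of all genes were called lower and 3.77% higher. Fold changes were negative for 36 (47.8% of all genes), with a median of -0.54 against 0.02 over all genes, and 14 members lay lower without overlap (8.38% of all genes). None of the 8 GTPase members passed with edgeR or DESeq2, although all 8 fold changes were negative and 4 had no overlap. In edgeR 1 of the 8 was at an unadjusted p under 0.05, as were 3433 of all 13180 genes.

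Irf7 was at 20.4, 28.4, 18.4 and 25.2 CPM in fast food control and 12.4, 7.32, 12.6 and 12.5 CPM in fast food antibiotic libraries, with no overlap (-1.04 ± 0.22, edgeR adjusted p = 0.0177). Ifit3 went from 4.87, 11.7, 7.14 and 10.1 CPM to 4.08, 1.36, 4.49 and 4.53 CPM (-1.23 ± 0.33, adjusted p = 0.0419). Ifit2 went from 5.62, 12, 9.18 and 11.2 CPM to 2.59, 2.94, 4.49 and 4.9 CPM (-1.34 ± 0.33, adjusted p = 0.0328). In each of these genes the lowest fast food control library still lay above the highest antibiotic library. Isg15 went from 2.73, 3.15, 2.29 and 1.73 CPM to 0.796, 0.646, 1.5 and 1.23 CPM (-1.22 ± 0.32, adjusted p = 0.0359). Rtp4, a chaperone of receptor transport, went from 12.9, 17.5, 12 and 16.3 CPM to 6.37, 7.9, 10.6 and 8.21 CPM (-0.82 ± 0.23, adjusted p = 0.0468). These 2 showed no overlap either.

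Several members that fell after chow had near-equal levels in the 2 waters after fast food. Dtx3l was at 102, 103, 89.6 and 110 CPM in fast food control and 84.2, 72.5, 119 and 119 CPM in fast food antibiotic libraries (-0.03 ± 0.13, edgeR adjusted p = 0.903). Parp9 was at 76.9, 87, 75.1 and 79.7 CPM and 64, 78, 76.1 and 71.8 CPM (-0.14 ± 0.11, adjusted p = 0.44). Stat2 was at 28.9, 33.4, 28.6 and 32.5 CPM and 30, 50.3, 39.3 and 34.6 CPM (0.32 ± 0.23, adjusted p = 0.406). Here the groups overlapped, and for Stat2 the antibiotic mean was the higher of the pair. Irf1 did not pass (-0.76 ± 0.65, adjusted p = 0.496), although its 25.5 to 44.4 CPM and 18.7 to 22.2 CPM did not overlap.

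The count of 5 after fast food changed with most single libraries. Without fast food control replicates 1, 2, 3 and 4 the count was 2, 0, 1 and 2, and without fast food antibiotic replicates 1, 2 and 4 it was 1 each. It stayed at 5 without fast food antibiotic replicate 3. None of the 5 calls held without each library in turn, and fast food control replicate 2 gave the highest adjusted p for each, 0.058 for Irf7, 0.087 for Ifit2, 0.0994 for Isg15, 0.116 for Ifit3 and 0.122 for Rtp4 (edgeR). With the ribosomal RNA-like split as a model term edgeR called no gene at all, and no fast food control library lay on the high side. Kupffer markers fell here as well (4 of 6), with summed levels that did not overlap.

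**Figure D3:**
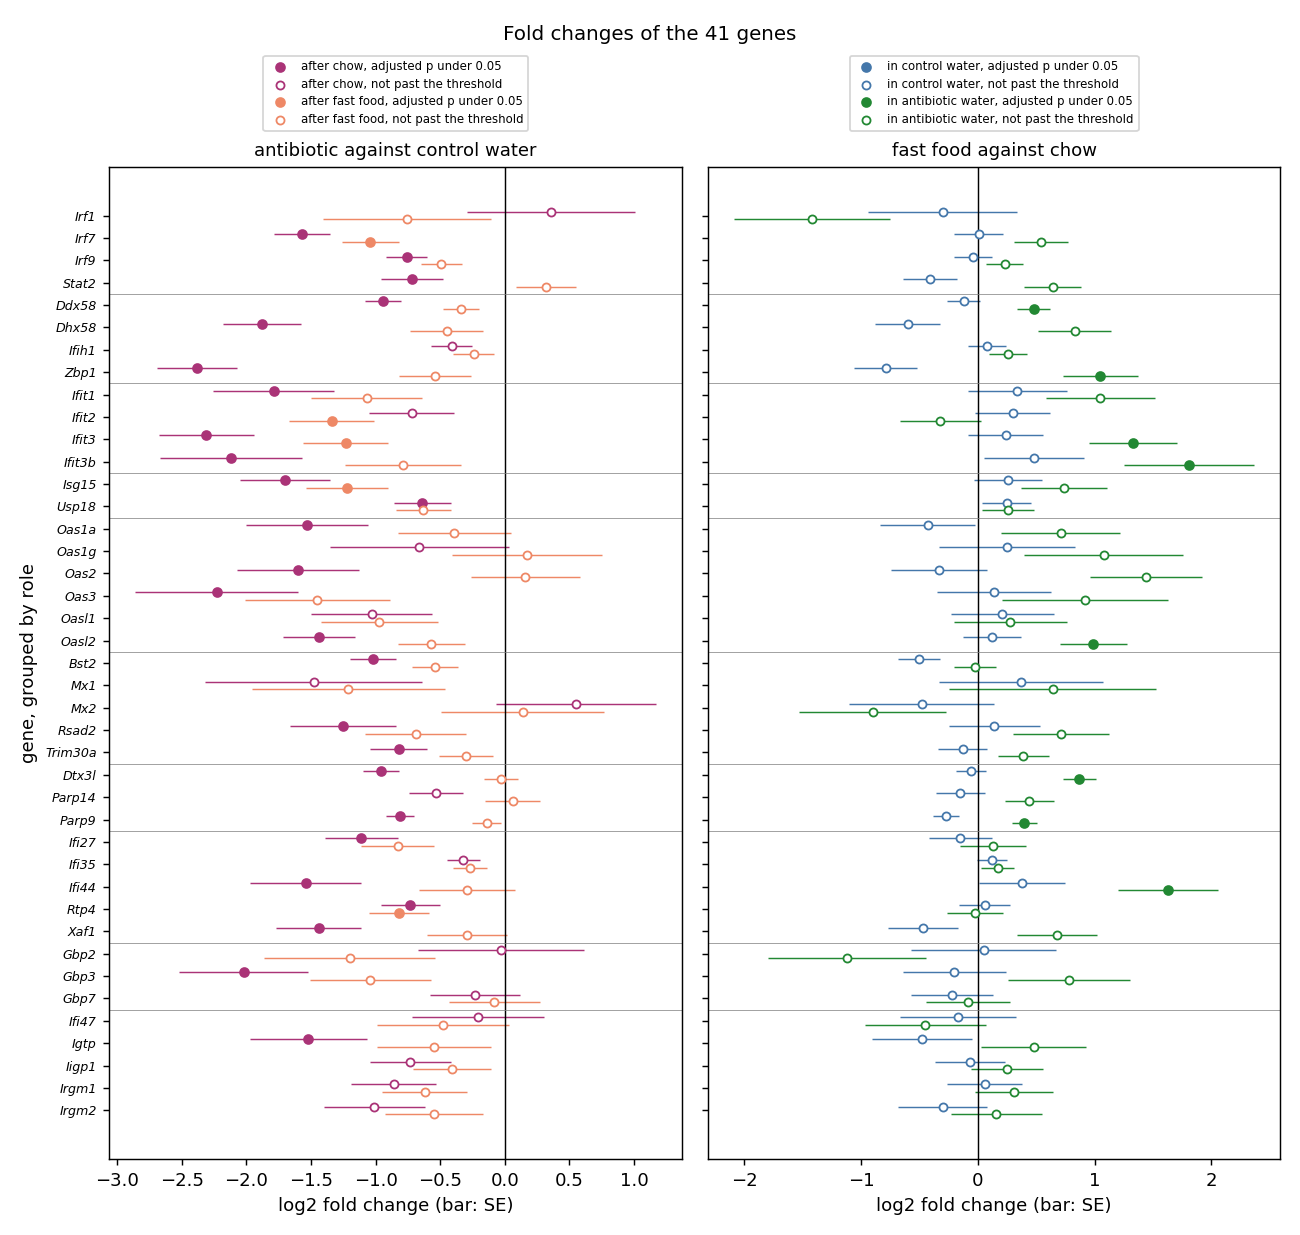
Log2 fold changes with SE (horizontal axis) of the 41 genes (vertical axis, grouped by role) for antibiotic against control water (left) and fast food against chow (right); filled points had an adjusted p under 0.05. On the left most points are negative, with 26 filled after chow and 5 after fast food; on the right no point is filled in control water and 8 are filled in antibiotic water.

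The meal itself was compared in each water. In control water none of the 41 members passed (edgeR adjusted p of 0.222 or more, none with DESeq2 either), where 0.577% of all genes were called. At an unadjusted p under 0.05 (edgeR) there were 4, all lower after fast food, Zbp1, Dhx58, Bst2 and Parp9. Of all 13180 genes tested 1515 were at that level, 809 of them lower. The 4 are therefore not read as particular to the members. The median was -0.06 against -0.02 over all genes. Zbp1 was at 1.87, 3.79, 2.55 and 3.5 CPM after fast food (-0.79 ± 0.27, adjusted p = 0.222). Dhx58 was at 7.7, 8.57, 7.14 and 8.33 CPM, below all 4 chow control libraries (-0.60 ± 0.28, adjusted p = 0.419). Stat2 was the other member without overlap, where 5.15% of all genes lay lower without it. No setting tried called any member in this comparison.

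In antibiotic water 8 type I style members rose after fast food and none fell, where 7.78% of all genes were called higher and 5.87% lower. This comparison and the water effect after chow share the chow antibiotic libraries, so they are not independent. Of 41 fold changes 33 were positive (53.3% of all genes), with a median of 0.48 against 0.03 over all genes, and 5 members lay higher without overlap (7.78% of all genes). None of the 8 GTPase members passed with edgeR or DESeq2. In edgeR none was at an unadjusted p under 0.05, where 4005 of all 13180 genes were.

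Dtx3l rose 1.83-fold (0.87 ± 0.14, edgeR adjusted p = 0.00177), from 50.7 to 58.4 CPM after chow to 72.5 to 119 CPM after fast food, with no overlap. Parp9 rose from 50.1 to 61.5 CPM to 64 to 78 CPM (0.40 ± 0.11, adjusted p = 0.0235), also without overlap. Zbp1 was at 1.89, 1.72, 2.58 and 1.79 CPM after fast food, above the 1.42 CPM that was the highest after chow (1.05 ± 0.32, adjusted p = 0.0396). Ddx58 was at 25.9, 25.6, 39.1 and 37.6 CPM after fast food, replicates 3 and 4 well above replicates 1 and 2 (0.48 ± 0.14, adjusted p = 0.0336). Oasl2 was at 2.09, 2.15, 2.89 and 3.49 CPM after fast food, the last of the 5 without overlap (0.99 ± 0.29, adjusted p = 0.0335). Ifit3 (1.33 ± 0.38, adjusted p = 0.0318) and Ifit3b (1.81 ± 0.56, adjusted p = 0.0426) rose with overlap. In both, fast food antibiotic replicate 2 stayed among the chow libraries, at 1.36 and 0.287 CPM, and the other 3 libraries were at 4.08 to 4.53 CPM and 1.39 to 2.45 CPM. Ifi44 was at 2.59, 2.01, 3.09 and 4.34 CPM after fast food, where replicate 2 lay below the highest chow library (1.63 ± 0.43, adjusted p = 0.023). Irf7 (0.54 ± 0.23, adjusted p = 0.119), Irf9 (0.23 ± 0.16), Stat2 (0.64 ± 0.24), Isg15 (0.74 ± 0.37) and Usp18 (0.26 ± 0.22) did not pass.

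Fast food antibiotic replicate 2 was the lowest of its group for 20 of 33 type I style members and had the highest acute phase score of its group. Without it 12 members rose, and 12 also when chow antibiotic replicate 4 was dropped. Without the 3 libraries of high acute phase transcripts 19 rose, of which 18 were of the type I style. The number of all genes called in these fits is not given, so the larger counts are not read as particular to the members. Other omissions cut the count. It was 3, 1 and 3 when chow antibiotic replicates 1, 2 and 3 were dropped in turn. Dropping replicates 1, 3 and 4 of fast food antibiotic gave 5, 1 and 1. Dtx3l was the only 1 of the 8 to keep its call without each library. The highest adjusted p (edgeR) was 0.0736 for Parp9, with chow antibiotic replicate 2 dropped. With fast food antibiotic replicate 4 dropped it was 0.0757 for Ifi44, 0.106 for Oasl2 and 0.143 for Ifit3b. With replicate 3 of that group dropped it was 0.0969 for Ifit3, 0.123 for Ddx58 and 0.13 for Zbp1. In a fit to these 2 groups alone 1 member rose. The high-share side of the split had 2 libraries after chow against 3 after fast food. There edgeR called none of 38 members and 1 gene in all (2238 at an unadjusted p under 0.05). Of the 38 fold changes 24 were positive, and the share over all genes in that fit is not given.

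Cell markers did not move alike in this comparison. No Kupffer marker was called, and the sums were 117 to 153 CPM after chow and 114 to 169 CPM after fast food. The plasmacytoid dendritic cell markers Siglech and Ccr9 rose, from a summed level (4 markers) of 0.852 to 1.61 CPM to 3.09 to 5.47 CPM. Klk1 and Cox6a2 of the same list had 10 counts and 1 count over all libraries. Retnlg of the neutrophil list fell (-4.00, edgeR adjusted p = 0.0381). The summed neutrophil markers were at 73.7 CPM in chow antibiotic replicate 4 and at 2.98 to 4.47 CPM in the rest of that group. The endothelial marker Stab2 (0.40, edgeR adjusted p = 0.0237) and the stellate cell marker Colec11 (0.81, adjusted p = 0.0107) rose. The rest of these endothelial and stellate lists was mixed, and none of it passed. Endothelial Kdr was at 0.37, Lyve1 at 0.14, Clec4g at -0.26 and Pecam1 at -0.28. Stellate Reln was at 0.29, Des at 0.01, Lrat at -0.01 and Dcn at -0.34. The hepatocyte markers Alb (-0.91, edgeR adjusted p = 0.009), Apoa1, Ttr and Serpina1c fell. Their part in the members' rise was not tested.

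The difference between the meal effects in the 2 waters was tested as an interaction. It was positive and passed for 3 of 41 members, Dtx3l (0.93 ± 0.19, edgeR adjusted p = 0.0168), Parp9 (0.67 ± 0.15, adjusted p = 0.0235) and Zbp1 (1.84 ± 0.42, adjusted p = 0.024), where 2.36% of all genes were called higher and 1.58% lower. For these 3 the larger fall with antibiotic water after chow than after fast food passed the test of the difference. The interaction was positive for 35 of 41 (55% of all genes), with a median of 0.52 against 0.06 over all genes. Dhx58 (1.42 ± 0.41, adjusted p = 0.0591), Stat2 (1.05 ± 0.33, adjusted p = 0.084) and Ddx58 (0.60 ± 0.20, adjusted p = 0.0881) did not pass. No GTPase member passed (none at an edgeR unadjusted p under 0.05, where 2785 of 13180 genes were, and none with DESeq2). The count was 1 without fast food control replicate 3 or chow antibiotic replicate 2, 7 when chow antibiotic replicate 4 was dropped, 6 when replicate 2 of fast food antibiotic was, and 12 without the 3 libraries of high acute phase transcripts. Here too the number of all genes called in these fits is not given. Dtx3l kept its call without each of the 16 libraries. Zbp1 and Parp9 had their highest adjusted p, 0.0575 and 0.0593, without fast food control replicate 3. They also lost it without chow antibiotic replicate 2. Zbp1 lost it too without replicate 1 of chow antibiotic or 3 of fast food antibiotic, and Parp9 without fast food control replicate 1 or fast food antibiotic replicate 4.

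**Figure D4:**
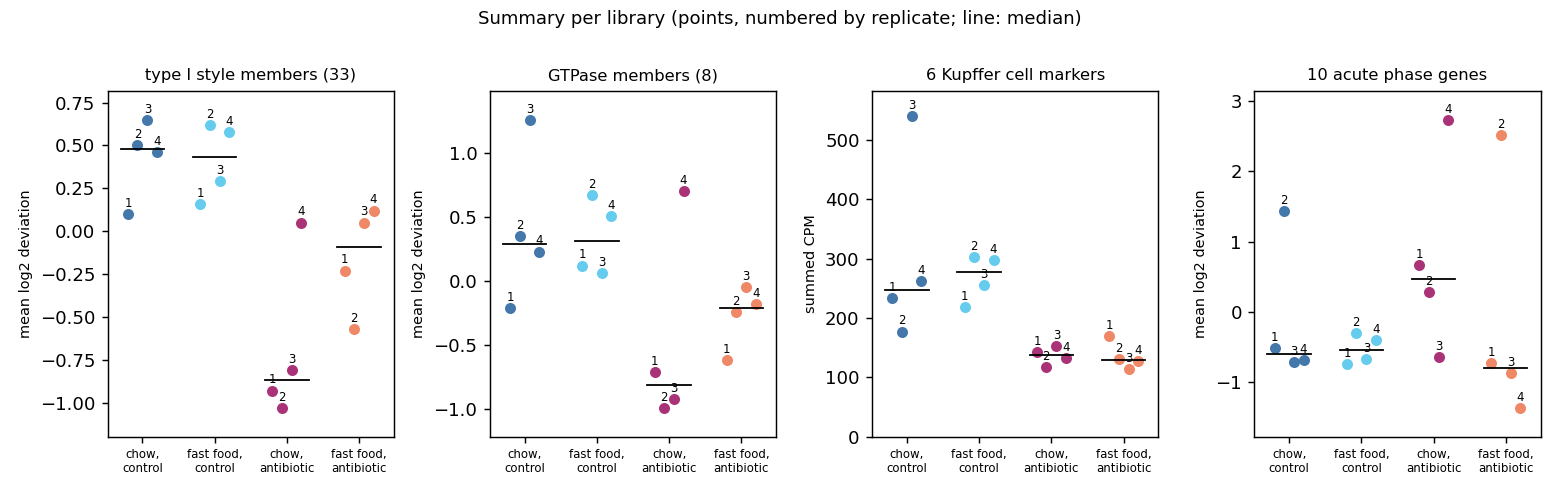
Each point is 1 library, numbered by replicate, by group, and the line is the median; the score panels give the mean log2 deviation from the average library over 33 type I style, 8 GTPase or 10 acute phase genes, and the Kupffer panel the summed CPM of 6 markers. Type I style scores of chow antibiotic replicates 1 to 3 run from -1.03 to -0.81 and replicate 4 is at 0.05, while the Kupffer marker sums of both antibiotic groups lie below every control-water library.

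Per library, the type I style members had a mean log2 deviation of 0.1 to 0.65 in chow control and 0.16 to 0.62 in fast food control. It was -1.03 to 0.05 in chow antibiotic and -0.57 to 0.12 in fast food antibiotic libraries. The lowest chow control library, at 0.1, therefore overlapped the fast food antibiotic libraries. The GTPase members ran from -0.21 to 1.26, 0.06 to 0.67, -0.99 to 0.7 and -0.62 to -0.05 in the same order of groups. In chow control replicate 3 the GTPase score was 1.26 and the type I style score 0.65. By group mean, 33 of 41 members were lowest in chow antibiotic and 7 in fast food antibiotic, and 37 were highest in 1 of the 2 control-water groups.

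Genes upstream of the members were read from a wider list of 111 pathway genes, of which 108 were in the table and 85 tested. Most interferon genes had few or no counts. Ifnb1 had 1 count and Ifng 3 counts over all 16 libraries, and Ifna1, Ifna2, Ifna4, Ifna5, Ifna11, Ifnl2 and Ifnl3 had a count of 0 in every library. Of 18 ligand genes only Ifnk and Il18 were tested, and neither passed in any comparison. Ifnk, interferon kappa, had 198 counts and was above 0 in all 16 libraries. It averaged 0.58 CPM in chow control, 0.569 in fast food control, 0.73 in chow antibiotic and 1.64 in fast food antibiotic libraries. Fast food antibiotic lay above fast food control without overlap, a difference that did not pass (1.51 ± 0.50, edgeR adjusted p = 0.0781). Among 5 receptor genes tested, Ifngr2 (-0.84 ± 0.22) and Il10rb (-0.67 ± 0.19) fell after chow in antibiotic water. Ifnar1 (-0.07 ± 0.12, edgeR adjusted p = 0.685) and Ifngr1 (-0.07 ± 0.16, adjusted p = 0.763) did not pass. The kinase gene Tyk2 fell (-0.57 ± 0.15).

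Further interferon-stimulated genes outside the 41, also listed with earlier results of these data known, followed in part. After chow in antibiotic water 18 of 38 tested fell, and 1, Ifitm1, rose, where 13.2% of all genes were called lower and 10.6% higher. Cmpk2 (-2.30 ± 0.31), Tor3a (-1.77 ± 0.26), Ifi27l2a (-1.81 ± 0.34), Ifi27l2b, Ddx60 (-1.43 ± 0.24), Lgals3bp, Eif2ak2, Samhd1, Herc6, Adar, Helz2, Parp10, Parp12, Slfn5, Trim12c, Trim21, Trim34a and Mndal made up the 18. Of 16 further GTPase and gamma-type genes tested 6 fell, Gm4951 (-1.31 ± 0.16), Ciita (-3.04 ± 0.53), Gm4841, Tgtp2, Gbp10 and Gbp2b. After fast food in antibiotic water compared with chow, 8 of the 38 rose (Trim25, Sp100, Samhd1, Eif2ak2, Cmpk2, Mndal, Trim12c and Ddx60) and 3 of the 16 (Gm4951, Gm4841 and Ciita). Of all genes 7.78% were called higher in that comparison. Between waters after fast food Lgals3bp and Ifi27l2a fell, where 2.22% of all genes were called lower. The interaction was positive and passed for Samhd1, Eif2ak2, Tor3a and Gm4951, where 2.36% of all genes were called higher.

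Regulators went both ways. After chow in antibiotic water Ptpn2 (1.45 ± 0.48), Irf2bp2 and Tbk1 rose and Ptpn6 fell. After fast food in antibiotic water Ptpn6 and Irf2 were called higher than after chow. Irf5 is a factor of Toll-like receptor signalling. It was lower after fast food than after chow in antibiotic water (-0.78 ± 0.17, edgeR adjusted p = 0.0091), and lower in antibiotic than in control water after fast food (-0.88 ± 0.17, adjusted p = 0.0113). Its interaction was negative (-1.25 ± 0.23, adjusted p = 0.00978). Socs1, a feedback inhibitor, was at 0.111, 0.35 and 0.401 CPM in chow antibiotic replicates 1 to 3 and 29.7 CPM in replicate 4, and its water effect after chow did not pass (4.02 ± 1.40, adjusted p = 0.0526).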

How the data were processed

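RNA-seq of 16 liver libraries (4 groups of 4) was read from gene counts that the authors deposited. Per the submitters' processing notes, STAR, HTSeq, cutadapt, FastQC, edgeR, DESeq2 and the build GRCm38.p6 belong to the processing, with no role, version, strand setting or rule for multi-mapped reads stated. Counts were scaled by TMM and tested with edgeR 4.0.16 (R 4.3.3, robust quasi-likelihood, filterByExpr with a minimum count of 10, 1 mean per group, all 16 libraries). P-values were adjusted by Benjamini-Hochberg over 13180 genes, with a threshold of 0.05. The SE is the log2 fold change over the root of its F. Scores are mean log2 CPM (prior count 2) minus the gene mean. Total counts per library were 8954378 to 18954655. The tests were also run on simulated counts, drawn without a library apart or a ribosomal RNA-like split. That run cannot judge calls that depend on these.

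The 41 members and all gene lists were chosen with earlier results of these data known. Members were named by role; values in every library are given for called members (the 10 of lowest p per comparison) and 10 set members. Further pathway genes were named if called. A result for a further pathway gene is not reported here. Alternatives were DESeq2 1.42.0, RLE factors, other count filters, fits to 2 groups, a replicate block, a term for the ribosomal RNA-like split and leaving out libraries. The fits to each side of that split were chosen after seeing the data. Deviations of same-numbered libraries had correlations of -0.222 to 0.359. For chow control with fast food antibiotic all were positive (0.014 to 0.359, mean 0.118 against -0.036 for other numbers). In the other pairs of groups the mean was -0.071 to 0.015. The labels state no pairing, and numbers were not taken as pairs.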

Additional observations from a re-analysis of the deposited data

Results flagged for a closer look

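In 164 combinations of member and group, 8 had a library apart from the other 3. The gap was more than 0.829 of the group's range, both taken on log2 CPM, while levels below are CPM. Chance flags about 1 in 20 groups, so 8 of 164 is near the chance rate. Chow antibiotic replicate 4 stood high for Rsad2 (13.6 CPM against 5.17 to 5.67), Rtp4 (13.5 against 6.74 to 7.39) and Gbp2 (25.1 against 2.64 to 3.89). Fast food antibiotic replicate 2 stood low for Ifit3 (1.36 CPM against 4.08 to 4.53) and Irf7 (7.32 against 12.4 to 12.6). Fast food antibiotic replicate 1 was low for Parp14 (53 CPM against 70.6 to 71.7). Chow control replicate 1 was low for Iigp1 (287 CPM against 429 to 463), and chow control replicate 3 was high for Trim30a (12.8 CPM against 8.89 to 9.23).

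The meal effect differed between the waters for 3 members by the interaction test, with log2 differences of 1.84 for Zbp1, 0.67 for Parp9 and 0.93 for Dtx3l.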

How the results depend on the processing

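The counts of members called were 0 and 8 for the meal in control and antibiotic water, 26 and 5 for the water with chow and fast food, and 3 for the interaction. No called member reversed its direction under any alternative run. DESeq2 gave 9 for the water with fast food and 5 for the interaction. Fits to the 2 groups gave 1 for the meal in antibiotic water and 10 for the water with fast food. Without the 3 libraries of high acute phase transcripts the meal in antibiotic water gave 19 and the interaction 12. The term for the ribosomal RNA-like split gave 0 for the water with fast food. The high-share libraries alone gave 0 for the meal in antibiotic water and 0 for the water with chow. The cause of these changes was not tested. Outside the ribosomal RNA-like split, the number of all genes called in each alternative fit is not given. A changed count is therefore not read as particular to the members. Leaving out 1 library at a time gave 0 to 0, 1 to 12, 17 to 37, 0 to 5 and 1 to 7 in the order above. With replicate number as a block the counts were 0, 7, 26, 5 and 3. Oasl2 lost its call for the meal in antibiotic water (edgeR adjusted p = 0.0615) and Igtp for the water with chow (adjusted p = 0.0683), where 25 of the 26 remained. No other member call was lost under the block. Low counts limit what can be read for most interferon genes and for members such as Oas1g, with 97 counts in all. The part of depth in these low counts was not tested.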

Other observations

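Other interferon-linked transcripts stood apart in single libraries. Cxcl10, a chemokine induced by interferon, was at 57.8 CPM in chow antibiotic replicate 4 and at 0.401 to 0.944 CPM in the other 3 libraries of that group. Gbp2b, a further guanylate-binding protein, was at 11.6 CPM in chow control replicate 3 and at 0.732 to 0.966 CPM in the other chow control libraries. It was listed at 0 in 3 chow antibiotic libraries and at 0.0555 CPM in the fourth.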
